A study of Aedes aegypti with 5 samples.

Results

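Salivary glands of unfed female *Aedes aegypti*, the state before a blood meal, are described here by the signal of every gene probe on their arrays. All gene probes of the array were taken, 433 of 433, and the unfed glands are 1 of 5 RNA pools and 3 of 15 arrays of the series. The mosquitoes were of the Higgs white eye strain, were kept on sugar water, were starved before use and had never taken blood. The other pools came from females of the same age, starved alike, that had fed to engorgement on a mouse and were dissected at 1, 3, 24 and 48 h post feeding (hpf). The 3 unfed arrays were hybridized with RNA of a single pool, so that they are technical replicates. An SD over them measures the spread between arrays and not that between mosquitoes. How many mosquitoes went into this pool is not stated in the sources used here.

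The salivary gland of a female mosquito has a pair of tasks. Its proximal lateral lobes make enzymes that digest sugar, and its distal lateral and medial lobes make the proteins that keep host blood flowing. Apyrase removes ADP and so hinders platelet aggregation, sialokinin widens vessels, D7 proteins bind biogenic amines and eicosanoids, and the 30 kDa protein aegyptin binds collagen. Saliva is stored in the gland and injected with the bite, together with lysozyme and other proteins that act on microbes. The probes were named from the descriptions in the deposited table and ordered into 26 lists by such roles.

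Signal is given as raw spot intensity, in scanner units with a highest value of 65535, always in the order of unfed arrays 1, 2 and 3. A probe was called saturated on an array at 60000 or more, measurable when it lay above the mean of the 22 empty spots plus 2 SD and below saturation, and not above the empty spots otherwise. The signal of a spot depends on its probe as well as on its transcript, so the ranking is one of spot signal. Saturated probes have no order among themselves, and neither have probes not above the empty spots. On the unfed arrays 48, 57 and 64 probes were saturated and 146, 132 and 136 lay above the empty spots, saturated ones included. The 12 arrays of fed glands had 33 to 63 saturated probes and 121 to 162 above the empty spots. The median gene probe had an intensity of 4235, 3739.79 and 7204 on the unfed arrays.

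Across all 3 unfed arrays 48 probes were saturated, 62 were measurable and 279 did not exceed the empty spots, while 44 changed class between arrays. Above the empty spots on all 3 arrays were 126 probes, 29.1% of 433. The 48 saturated probes carried 63.3%, 58.8% and 45.3% of the summed signal over the mean of the empty spots on arrays 1, 2 and 3, the 62 measurable ones 13.3%, 20.5% and 30.7%. These shares understate the saturated probes, whose signal stops at the end of the scale. The 279 dim probes carried 6.98%, 2.15% and 5.79%.

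**Figure D1:**
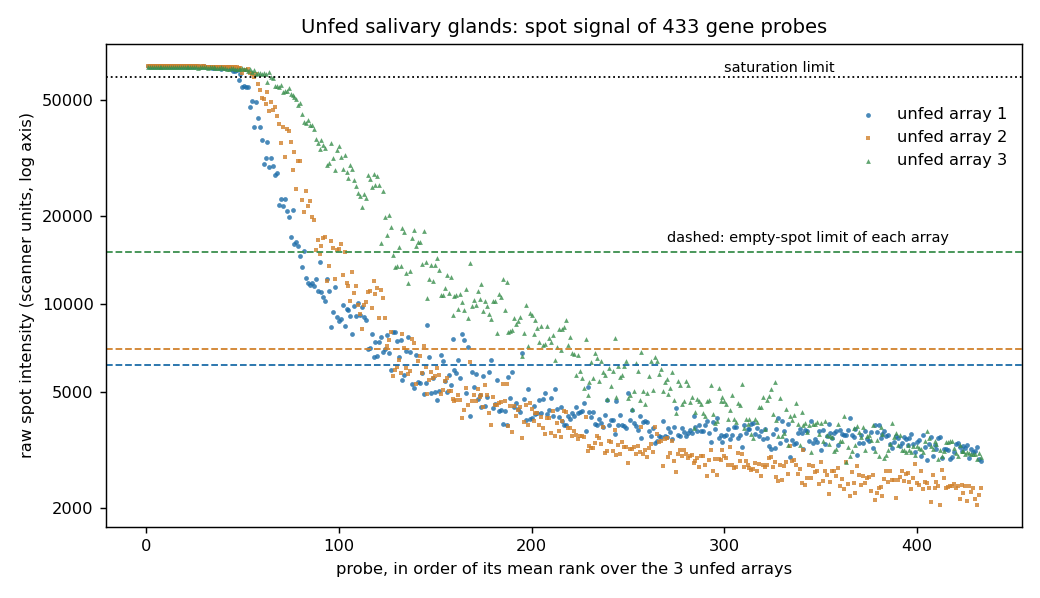
Raw spot intensity (log axis) of the 433 gene probes on the 3 unfed arrays, ordered by mean rank; dashed lines are the empty-spot limit of each array in its own colour and the dotted line is the saturation limit of 60000. The 48 probes saturated on every array form a flat top, and signal falls steeply over the 62 measurable ones to a long tail of 279 dim probes.

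The 3 arrays differed in brightness, and less in the order of probes. Across the 433 probes Spearman's rho was 0.911 between arrays 1 and 2, 0.918 between 1 and 3 and 0.983 between 2 and 3, as a description of 1 RNA pool read on 3 arrays. Within the 62 measurable probes it was 0.846, 0.866 and 0.972, and within the 279 dim ones 0.689, 0.714 and 0.938. Array 3 gave the highest intensity for 62 of the 62 measurable probes and array 1 the lowest for 58 of them. The median measurable probe was 1.55-fold brighter on array 2 than on array 1 and 3.05-fold brighter on array 3 than on array 1. Among the 48 saturated probes these ratios were 1.00 and 0.993, since they are held at the top of the scale.

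The limit of the empty spots was 6189, 7009 and 15088 on the 3 arrays. It was set mostly by 3 of the 22 empty spots, at positions 15, 24 and 111, which lie among the probes for secreted proteins at positions 2 to 129. Those 3 had 5056 to 8019 on array 1, 5728 to 9996 on array 2 and 10392 to 22045 on array 3, against 1451 to 3326, 2061 to 2698 and 2724 to 4383 for the other 19. The 2 sets did not overlap on any unfed array. The local background that the scanner software recorded around each spot differed in the same way, with medians of 12145, 14740.2 and 29357 around the probes for secreted proteins and 3589, 2659 and 3769.91 around the other probes. With the limit taken from the 19 empty spots past position 129, 314 of 433 probes lay above it on all 3 arrays in place of 126. No source used here gives the layout of the membrane, and the part of neighbouring spots in these values was not tested. Of the 126 probes above the limit from all 22, 113 also exceeded their own local background on every unfed array, and 11 of the 13 that did not encode secreted proteins.

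**Figure D2:**
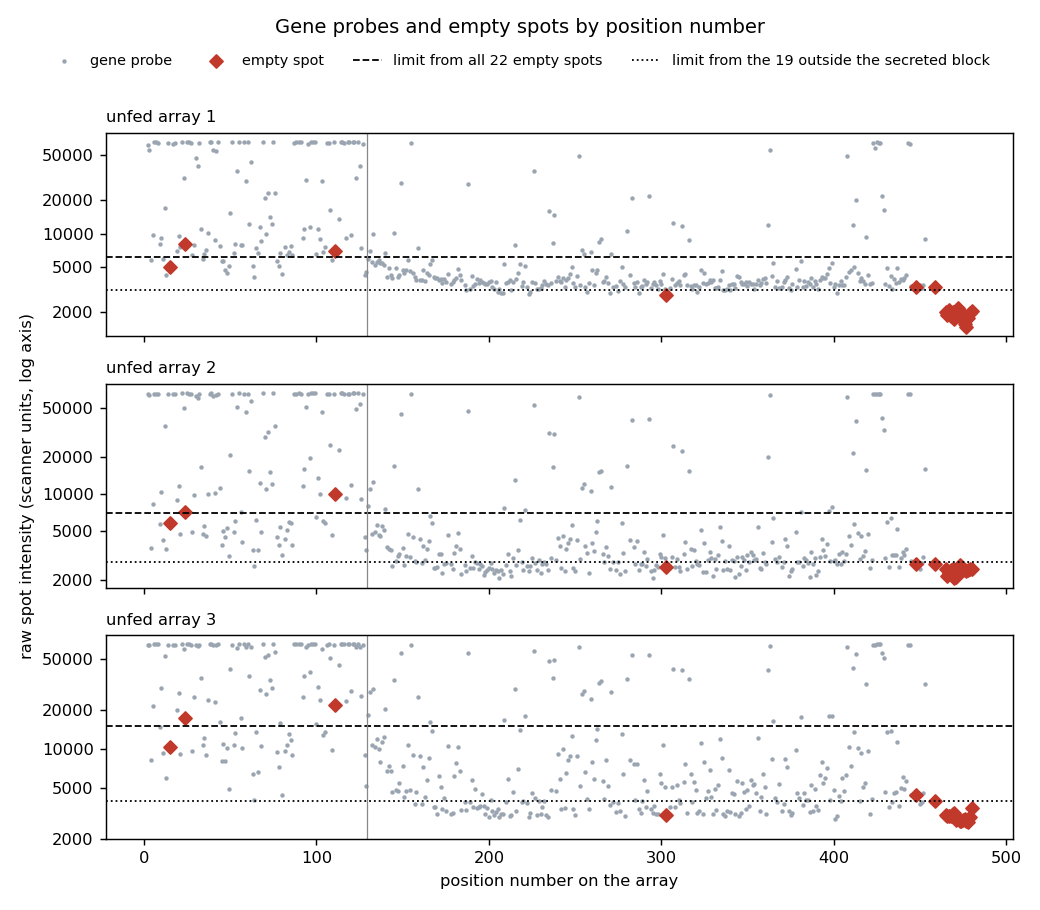
Raw spot intensity (log axis) of gene probes (grey) and empty spots (red diamonds) against the position number, 1 panel for each unfed array; the vertical line follows position 129, and dashed and dotted lines are the limits from all 22 and from 19 empty spots. The 3 empty spots left of the line, at 5056 to 22045, lie above the 19 others in each panel.

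Probes for secreted proteins held most of the bright signal. Of 121 such probes 41 (33.9%) were saturated on every unfed array and 84 (69.4%) lay above the empty spots on all 3. The counts given below for lists of secreted proteins are to be read against these shares. Of the 312 other probes, mostly for housekeeping functions, 7 were saturated and 42 (13.5%) lay above the empty spots throughout. The median intensity was 13943, 20650.3 and 42074 for secreted proteins and 3779, 3052 and 4892 for the others. Secreted proteins took 73.1%, 72.0% and 66.5% of the summed signal. No test was made between these sets, which also differ in position and local background. By the limit from the 19 empty spots 120 of 121 secreted and 194 of 312 other probes lay above it.

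**Figure D3:**
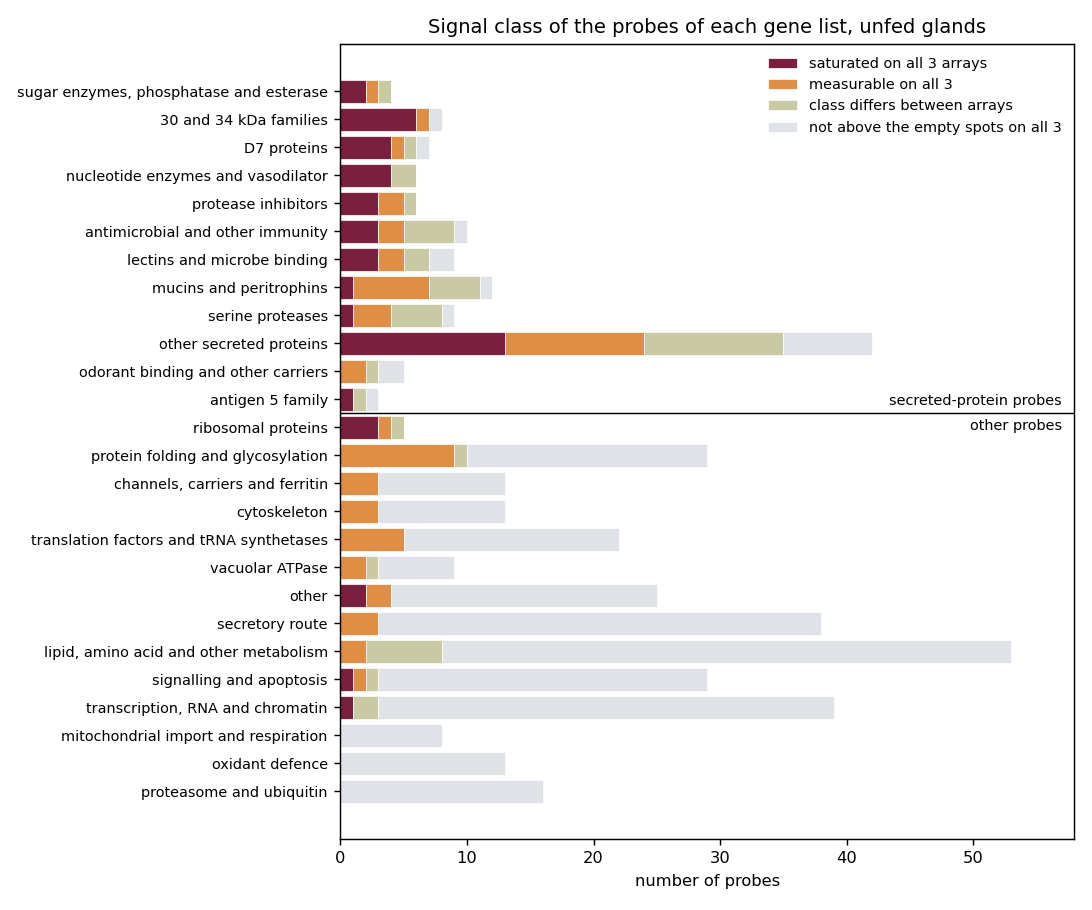
Number of probes of each of 26 gene lists that were saturated on all 3 unfed arrays, measurable on all 3, of differing class or not above the empty spots on all 3; lists of secreted proteins stand over the line, the others under it. By the limit from all 22 empty spots, all 4 sugar enzyme, phosphatase and esterase probes and all 5 ribosomal protein probes were above it. The lists of mitochondrial import and respiration, oxidant defence, and proteasome and ubiquitin had 0 probes above it, against 126 of all 433 probes.

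The sugar-digesting enzymes of the proximal lateral lobes stood at the top of the scale. Alpha-glucosidase (M30442), which splits sucrose, had 65535, 65457 and 65105, and amylase (L03637), which cleaves starch, had 65419.9, 65318 and 64980.2. Salivary alkaline phosphatase (AET-5851) had 55548, 61967 and 64425, with only array 1 below saturation. A putative carboxylesterase (AF466590) was measurable at 8784, 10121 and 23049.7, at rank 114 of 433. All 4 probes of the list were thus above the empty spots on every array, though the carboxylesterase did not exceed its own local background on any of the 3.

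The enzymes that break down nucleotides and the vasodilator stood there as well. Salivary apyrase (L12389) had 65488, 65289 and 65069. Purine nucleosidase (AF466587), which frees the base of a nucleoside, had 65514, 65516 and 64999, and putative adenosine deaminase (AF466610), which turns adenosine into inosine, had 65025, 65001 and 64267. The precursor of the vasodilatory protein (AF108102) had 65434, 65459.6 and 65004. All 4 were saturated on every unfed array and so cannot be ordered. The second apyrase or 5′ nucleotidase (AET-617) lay under them with 31643, 49456 and 60148 and reached saturation on array 3 alone. A T2 family ribonuclease (AET-3815) had 6418, 4883 and 9607, above the empty spots on array 1 alone, so that 5 of the 6 probes of the list were above them throughout.

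D7 proteins, which are related to odorant binding proteins, spanned the whole scale. Both long forms were saturated, D7l2 (M33157) with 65529, 65420.1 and 64979 and D7l1 (AF420272) with 65496, 65387 and 64886. Of the short forms D7s4 (AE-256) had 64522, 65057 and 64798 and D7s1 (AY951937) 61427, 64681 and 63903, which was the saturated probe nearest to the limit. D7s2 (AF420273) had 55772, 63595 and 63835, just under it on array 1. The 2 probes for D7s3 were far dimmer. The allele AE-182 had 9740.05, 8196 and 21490.4 and was measurable, while AY951936 had 5837, 3639 and 8149 and did not exceed the empty spots on any array. The 2 probes bear related names and differed in class, and signal of different probes is not comparable as a level of transcript. The short D7 probes thus included 2 that were saturated on every array and 1 that did not rise above the empty spots. Of the 7 D7 probes 6 were above the empty spots on every array, and 5 also exceeded their own local background on every array.

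The 30 and 34 kDa families, which include collagen-binding aegyptin, had the largest share of saturated probes of the secreted lists, 6 of 8 or 75.0%. The share was 33.9% over all secreted probes and 11.1% over all gene probes. The 30 kDa allergen variant 1 (Ae-41) had 65500.1, 65508 and 65053, the 30 kDa allergen-like protein (AF466608) 65515, 65431 and 65104 and the 34 kDa family protein AE-106 65532, 65520.2 and 65026. The 34 kDa protein AF466595, the similar peptide AE-229 and the related AE-260 were saturated too. The 30 kDa protein AY951940 was measurable with 9136, 9272 and 23395, though it did not exceed its own local background on every array. A probable truncated 34 kDa member (AEA-286) was dim with 5846, 4633 and 9843. In the antigen 5 family, small secreted proteins widespread in venoms and saliva, AF466589 was saturated with 65468, 65441 and 65036, AF466601 was dim with 5656, 4444 and 9423 and the venom-like protein AE-389 differed in class between arrays.

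**Figure D4:**
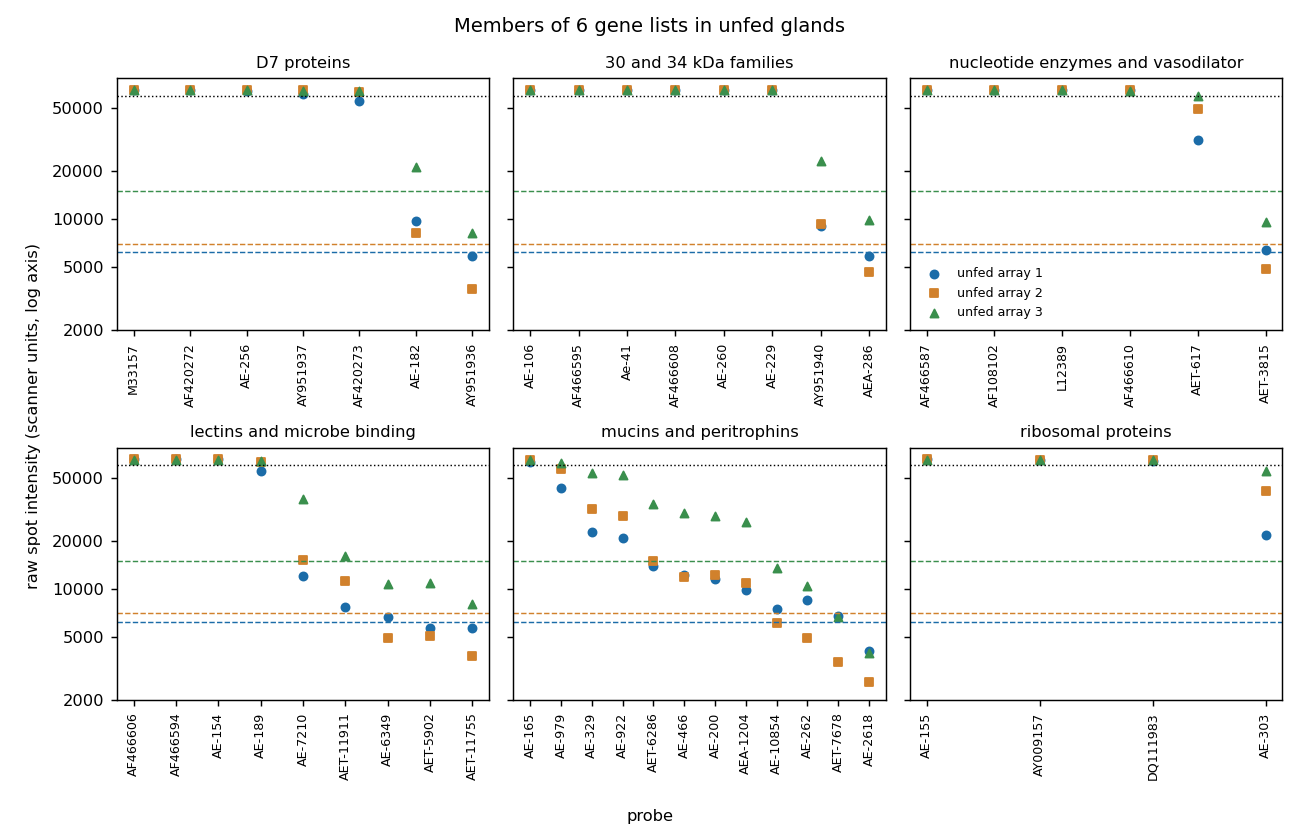
Raw spot intensity (log axis) of each probe of 6 gene lists on the 3 unfed arrays, ordered by rank within a list; the dotted line marks 60000 and dashed lines the empty-spot limit of each array. D7, lectin and mucin probes spread from saturation down to the empty spots, while the 4 ribosomal protein probes drawn lie at 21883 or more.

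Protease inhibitors included 3 saturated probes of 6, against 41 of 121 over all secreted probes. The salivary serpin AET-7393 had 64797, 65046 and 64608, the serpin AF466599 64929.8, 65034 and 64191 and AE-114, similar to an anticlotting factor directed at factor Xa, 63448, 64902 and 64148. The precursor of the factor Xa anticoagulant itself (AF050133) was among the 5 lowest measurable probes, with 7016, 8967 and 19879.7. A peptide with a Kazal domain (AET-1428) was measurable with 9569, 11493 and 27037, and cystatin (AE-746), an inhibitor of cysteine proteases, had 7558, 4725 and 9158. The serine proteases had 1 saturated probe of 9, the trypsin-like protein AE-191 with 65053, 65067 and 64461. The chymotrypsin-like enzyme AE-226 (47488, 62007 and 63735) and the protease AF466600 (40482, 60057 and 63429.6) were saturated on arrays 2 and 3. Large trypsin (AEA-876) was measurable with 11056, 16601 and 35696.

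Proteins that act on microbes were bright in part. Lysozyme (AF466591), which cuts bacterial cell walls, had 65518, 65458 and 65039.5. The 2 peptides with an HHH domain, AF466592 (65525, 65476 and 64938) and AET-11358 (65482, 65419 and 64926), were saturated as well. Gambicin (AF466602), an antimicrobial peptide, had 36604, 50899 and 61340.3 and was saturated on array 3 alone. Bacteria responsive protein 1 (AEA-871BRE) was measurable with 15176, 20650.3 and 42074. Defensin A1 (S82860), another antimicrobial peptide, had 7987, 5953 and 13355 and exceeded the empty spots on array 1 alone, below its own local background on every array. Of the 10 probes of this list 7 lay above the empty spots on all arrays and 30% were saturated, near the 69.4% and 33.9% of all secreted probes.

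Among lectins and other binders of microbes 3 of 9 probes were saturated, near the share of 41 of 121 over all secreted probes. They were the C-type lectin AF466606 with 65507, 65356 and 65059, the Gram negative binding protein AF466594 with 65386, 65371 and 65029 and the splice variant of the angiopoietin-like protein AE-154 with 65458, 65357 and 64716. The probe for the angiopoietin-like protein without that label (AE-6349) had 6679.53, 4900.3 and 10691, above the empty spots on array 1 alone. The C-type lectin AE-189 had 55307, 63332 and 63941, with arrays 2 and 3 saturated. Peptidoglycan recognition protein (AE-7210), which binds bacterial wall fragments, was measurable with 12137, 15258 and 36884.

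Mucins, heavily glycosylated proteins, filled the range in between. The putative salivary mucin AE-165 was saturated with 62780.2, 64811 and 64689 and the salivary mucin AE-979 had 43352, 56924 and 62037. Of the 12 probes 6 were measurable, led by AE-329 with 22912, 31829 and 53939.8 and AE-922 with 20932, 28821 and 52034. The salivary mucin AE-2618 had 4056, 2585 and 3971 and did not exceed the empty spots on any array. Odorant binding and other carrier proteins had 0 saturated probes of 5. Their highest was the odorant binding protein AE-352, which had 16903, 35909 and 52427, followed by the truncated phosphatidylethanolamine-binding protein AET-458 with 9101, 10272 and 29977.

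The secreted proteins outside these lists, most with no known function, supplied 13 saturated probes of 42, from AF466604 (65518, 65439.9 and 65043) to AY536268 (63900.5, 64904 and 64483). The basic peptide AE-211, the histidine repeat peptide AE-3223 and the WWW domain peptide AE-257 lay between 64989 and 65512 on all arrays. AY951935, AE-209, which is similar to a *Culex* salivary protein, the basic tail peptide AE-156, AET-2909 and AF466593 were also saturated on every array. So were AE-216, AF466597 and AE-225, described as secreted peptides or proteins. Of these 42 probes 27 exceeded the empty spots on every array.

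Outside the secreted proteins 7 probes were saturated on all 3 unfed arrays. They included 3 of 5 ribosomal proteins, S2 (AE-155) with 65278, 65255 and 64844, L31 (AY009157) with 64504, 65070.4 and 64794 and S3 (DQ111983) with 64176, 64957 and 64797. S4 (AE-303) was measurable with 21883, 41444 and 55425. SGS1 (AY753538), a large salivary gland surface protein, had 65182, 65056 and 64229.7. The G protein beta subunit-like protein AE-2850 had 65114, 64977 and 63901, a zinc finger protein (AET-6085) 64666, 65016 and 64457 and a conserved peptide with a signal anchor (AE-393) 62809, 64872 and 64206.

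A further 9 probes were saturated on 2 of 3 arrays and 7 on array 3 alone. The first set held carboxypeptidase B (AY590494), which had 55637, 63792 and 63077, ornithine decarboxylase antizyme (AY064120), a regulator of polyamine synthesis, with 49655, 61608 and 62364, and the chaperone calreticulin (AF466603), which folds glycoproteins, with 49172, 61713 and 61393. In each of the 9 array 1 was the one below the limit. Among the 7 the proline rich peptide AE-214 had 40357, 54162 and 62085, the secreted protein AE-212 30245, 50480.1 and 62146 and I23Ma (AEA-233) 29536, 45916 and 62466.

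The highest measurable probe was the polyadenylate-binding protein (AET-265), which holds the tail of mRNA, with 35930.4, 53138 and 57606 at rank 62. The secreted peptide AE-289 had 29689.9, 46293 and 59614 and farnesoic acid O-methyltransferase (AET-407), an enzyme name tied to juvenile hormone synthesis, 27655, 47377 and 56016. Porin (AET-2852), the channel of the outer mitochondrial membrane, had 28132, 44210.4 and 55752. The secreted protein AF466586 had 22881, 35751 and 56403. Array 3 was brighter than array 1 for each. Of the 61 pairs of neighbours in this ranking 6 kept their order on all 3 arrays, such as porin over ribosomal protein S4. These ranks rest on intensities without subtraction of the local background. With it the rank of AET-265 was 6 and that of AEA-219 197, in place of 62 and 81.

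The measurable probes included parts of the machinery that makes, folds and exports protein. Heat shock cognate 70 protein (AET-381), a chaperone of the cytosol, had 21647, 40538 and 53523, and the 14-3-3 family protein AET-316 20767, 39793 and 53552. Elongation factors 1 alpha (AET-205) and 2 (AY064104), which drive the ribosome along mRNA, had 15806, 30946 and 48274 and 14641, 30835 and 49064. The signal peptidase subunit SPC25 (AE-301), part of the enzyme that trims secreted proteins on entry into the endoplasmic reticulum, had 12304, 24446 and 41856. In all, 10 of 29 folding and glycosylation probes, 5 of 22 translation probes and 3 of 38 secretory route probes exceeded the empty spots on every array, against 29.1% of all probes and 13.5% of those outside the secreted set. The last 3 were AE-301, the signal peptidase subunit AE-284 (11651, 22472 and 41122) and Sec61 alpha (AY064125), the channel into the endoplasmic reticulum (8728, 15432 and 34821).

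The cytoskeleton had 3 of 13 probes above the empty spots, alpha tubulin (AET-2915) with 19919, 39284 and 55044, actin (AE-314) with 11823, 21650 and 42707 and the translationally controlled tumor protein (AET-2239) with 9402, 15549 and 31738. Actin is 1 of the 2 reference spots of the deposited report. Among channels and carriers, porin, ferritin heavy chain (L37082, 10208, 16971 and 34246), which stores iron, and aquaporin (AET-3896, 6765, 7544 and 20246), a water channel, were the 3 of 13. The vacuolar ATPase, the proton pump that energizes insect secretory epithelia, had 2 of 9, subunits Ac45 (AE-4139, 9927, 12549.7 and 29035) and F (AET-5847, 7004, 11024 and 27723). The share over all 312 probes outside the secreted set was 13.5%. Of the 3 channel and carrier probes 2, and of the 2 vacuolar ATPase probes 1, also exceeded their local background on every array. The rest of the 20 highest measurable probes were the conserved protein AET-5165 (16085, 33087 and 51277), the secreted protein AF466598 (16369.9, 24889 and 50444) and the salivary peptide AEA-219 (13397, 22805 and 44777). Calmodulin (AET-410), a calcium sensor, had 7395, 10838 and 25516.

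**Figure D5:**
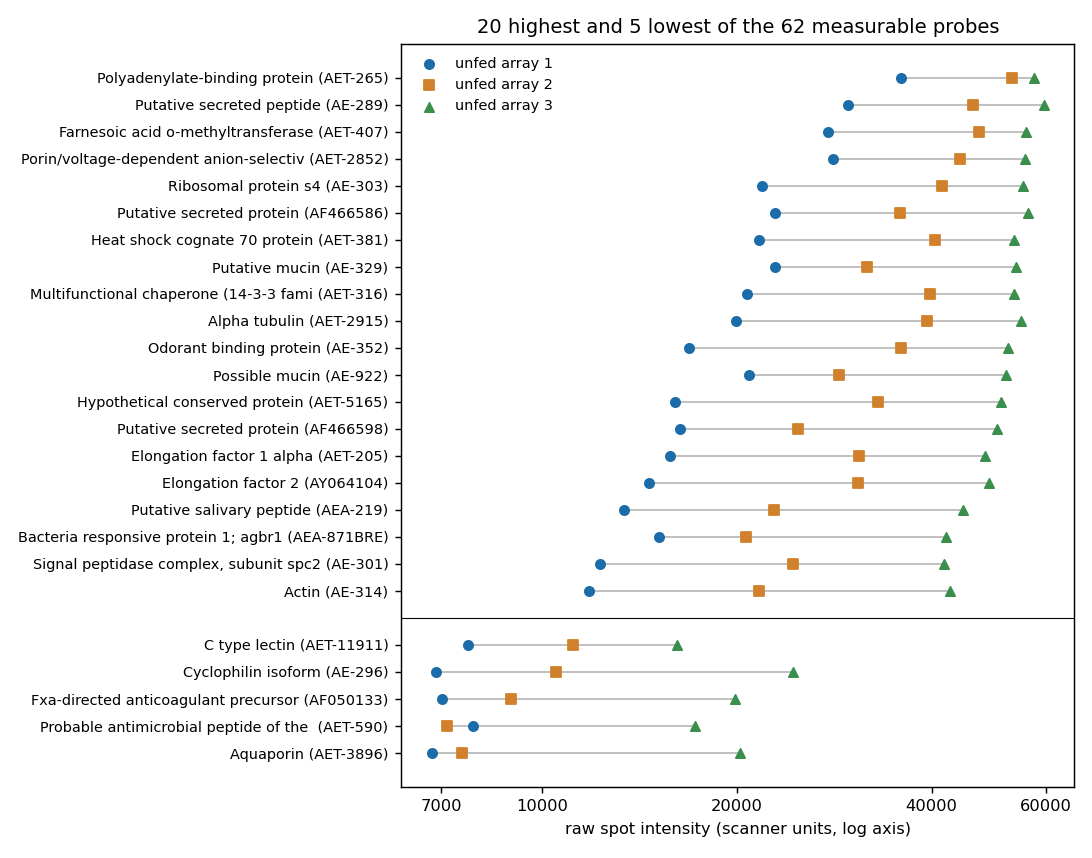
Raw spot intensity (log axis) of the 20 highest and, under the line, the 5 lowest of the 62 probes measurable on all 3 unfed arrays, with 1 point for each array and a grey line over their range. Array 3 is the highest for each probe, and the ranges of neighbours overlap.

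At the lower end of the measurable class lay aquaporin, the antimicrobial peptide AET-590 (7839.74, 7147 and 17242), the factor Xa anticoagulant AF050133, the cyclophilin isoform AE-296 (6862, 10522 and 24472) and the C-type lectin AET-11911 (7684, 11172 and 16204). AET-590 was nearest to the limit from inside, followed by the oligosaccharyltransferase gamma subunit AE-258 (6582, 12018 and 27975) and the cyclophilin AE-239 (6620.01, 11324 and 27582). Nearest from outside were vacuolar ATPase subunit M9 (AE-415, 5925, 7994 and 18435), an acetyltransferase (AET-1814, 5722, 7068 and 17637) and the secreted protein AET-7415 (6583, 6446 and 15678). Each of these 3 was short of the limit on a single array.

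Classes also changed from array to array near that limit. A set of 18 probes was above the empty spots on array 1 alone, and all 18 encode secreted proteins. Another 8 were short of the limit on array 1 and above it on array 3, and 0 of the 8 encode a secreted protein. On array 1, 26 measurable probes did not exceed their local background, against 9 and 8 on arrays 2 and 3.

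By the limit from all 22 empty spots, 262 of the 312 probes outside the secreted set stayed dim on every unfed array. Of all gene probes 279 of 433 did so. Dim throughout were 16 of 16 proteasome and ubiquitin probes, 13 of 13 oxidant defence probes and 8 of 8 for mitochondrial import and respiration. The highest of them were a regulatory chain of the 26S proteasome (AET-397) with 3874, 5319 and 12131, thioredoxin (AET-447), a reducer of protein disulfides, with 4434, 4882 and 11705, and the copper chaperone COX17 (AET-7047) with 4235, 4219.61 and 8239. Of the 39 probes for transcription, RNA and chromatin 36 were dim, of the 53 for lipid, amino acid and other metabolism 45, and of the 29 for signalling and apoptosis 26. Above the limit from the 19 empty spots past position 129 lay 10 of 16 proteasome and 6 of 13 oxidant defence probes. The same held for 5 of 8 probes for mitochondrial import and respiration, in each case on every array. Of all probes outside the secreted set 194 of 312 did so, and of all gene probes 314 of 433. A dim class therefore does not show that a transcript is absent or under detection.

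Normalized intensity, the deposited value of a spot relative to the 2 reference spots, spread widely over the 3 arrays. Among the 62 measurable probes the coefficient of variation ran from 10.6% to 68.2% with a median of 48.1%, and the raw intensity differed by 1.60-fold to 4.29-fold between the highest and the lowest array. The 5 widest were the translation initiation factor 3 subunit g (AET-545, 8309.67, 16499 and 35633) at 4.29-fold, AE-258 at 4.25-fold, AE-239 at 4.17-fold, Sec61 alpha at 3.99-fold and vacuolar ATPase subunit F at 3.96-fold. Ranks were steadier than intensities. The rank of a measurable probe differed between its highest and lowest array by 8 places in the median and by 39 at most. Probe AET-375, the 1 probe spotted 3 times, was dim in each of its spots, which had 2736 to 4056 on array 1, 2424 to 3232 on array 2 and 3138 to 6583 on array 3.

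Control spots stayed below saturation on every unfed array. The 18 spots of biotinylated artificial sequence ran from 3195 to 30194 on array 1, from 2285 to 52640.0 on array 2 and from 3504 to 59549 on array 3, and 7, 12 and 14 of them lay above the empty spots. The 5 other artificial sequences lay above them on 0 arrays, at 2210 to 3497.

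The label of the tissue was also set beside marker genes. The paper chose the genes of the array from a published salivary transcriptome, so salivary markers were bound to have probes and the check is weak. All 7 salivary markers sought had probes. Of their 20 probes 17 lay over the empty spots on every unfed array, against 69.4% of all secreted probes and 29.1% of all probes. Of the 17, 11 were saturated. The summed intensity of the 20 was 887675, 926776 and 992599. Both markers of the proximal lateral lobes, alpha-glucosidase and amylase, and 7 of 8 probes for markers of the distal and medial lobes were above the empty spots. For fat body, haemocytes and ovary no marker sought is among the probes. The only muscle marker on the array, myosin light chain (AE-377), had 4023, 4561 and 9332 and was dim. Probes named for trypsin, chymotrypsin, carboxypeptidase and peritrophin, sought as midgut markers, were above the empty spots in 5 of 5 cases, with a summed intensity of 191412, 219432 and 256926. The array carries them as salivary or housekeeping probes, and the part of midgut RNA was not tested.

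Set against the fed pools, the class of most probes was shared. All 48 saturated probes were above the empty spots on each of the 12 fed arrays, and 30 were saturated on each. Of the 62 measurable probes 34 were above on all 12 and 1 on none. That probe was the serine protease AEA-562, which had 7909, 9724 and 25175 on the unfed arrays, against 3402 to 8823 over fed ones, with a median of 5136. The Kazal peptide AET-1428 was above the empty spots on 3 of 3 unfed and 2 of 12 fed arrays (3331 to 12408), AE-258 and actin on 3 of 3 and 4 of 12 each. Of the 279 dim probes 243 were above the empty spots on no fed array either. The other way round, opsin (AET-596), a light receptor, regucalcin (AET-4555) and vacuolar ATPase subunit c (AF008924) were dim on all unfed arrays and above the empty spots on 6 or 7 of 12 fed arrays. The empty-spot limit was 4145 to 12640 on the fed arrays, and these class differences were not tested.

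The difference of the unfed pool from the mean of the 4 fed pools was tested with limma on log2 normalized intensity, for 167 probes that exceeded the empty spots on 2 or 3 arrays of any pool. Values under 0.242, the highest empty-spot limit of any array on this scale, were raised to it. At an adjusted p under 0.05, 0 probes (0% of 167) were higher and 0 (0%) lower in the unfed pool, and the lowest adjusted p was 0.0718. The spread in this test is that among the 4 fed pools and includes their different times. A change over time after feeding thus counts as error, and 0 calls do not show that the pools are alike. At an unadjusted p under 0.05, 9 were higher in unfed glands. For each of them, 6 to 12 of the 12 fed arrays lay at the floor. That cuts the spread among the fed pools, and nothing is read from these 9. Another 47 were lower in unfed glands, and 46 of the 47 were saturated on at least 1 array, where the value follows the reference spots. The reference holds actin, which had 11823, 21650 and 42707 in unfed glands, against 3906 to 16392 over the fed arrays. With each array divided by its median in place of the reference spots, 9 probes (5.39%) were called higher and 0 lower. For each of these 9, 8 to 12 of the 12 fed arrays lay at the floor of that scale, which removes spread among the fed pools, and nothing is read from the calls. With the 15 arrays fitted singly and the array number as a block, 10 probes (5.99%) were higher and 60 (35.9%) lower, 51 of the 60 saturated on at least 1 array. That fit treats technical replicates as samples.

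Of the 167 tested probes 6 differed by more than 1 on the log2 scale, 3 higher and 3 lower in the unfed pool, and they were chosen after their values were seen. Saturation or the floor cut the values of each of the 6 on some arrays, so that the size of these differences is not exact. The adjusted p given for them by limma is that of the fit of pools. The adjusted p with the block is from the limma fit of single arrays, which counts technical replicates as samples. The mucin AE-329 had normalized intensities of 0.62, 0.72 and 1.01 on the unfed arrays, and pool means of 0.58, 0.20, 0.19 and 0.41 at 1, 3, 24 and 48 hpf. Its log2 difference was 1.16 ± 0.54 (SE), with an adjusted p of 0.27 by limma and of 0.00038 with the array number as a block. The mucin AE-922 had 0.56, 0.64 and 0.97 on the unfed arrays and means of 0.56, 0.40, 0.24 and 0.26 in the fed pools. Its log2 difference was 1.03 ± 0.44, with an adjusted p of 0.24 by limma and of 0.00030 with the block. For both mucins 4 of 12 fed arrays lay at the floor. The secreted protein AE-212, saturated on unfed array 3 and at the floor on 7 of 12 fed arrays, had 0.85, 1.19 and 1.18 on the unfed arrays and means of 0.55, 0.34, 0.28 and 0.11 in the fed pools. Its log2 difference was 1.67, cut at both ends, with an adjusted p of 0.0718 by limma and of 0.00049 with the block.

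The other way, the glycine rich salivary peptide AET-4173 had 0.26, 0.26 and 0.53 on the unfed arrays and means of 1.65, 1.06, 1.86 and 1.40 in the fed pools. Its log2 difference was -2.13 ± 0.38, with an adjusted p of 0.0718 by limma and of 9.7e-05 with the block, and 1 fed array was saturated. Defensin A1 (S82860), at or under the floor on all unfed arrays and saturated on 4 of 12 fed arrays, had pool means of 1.70, 1.96, 1.13 and 0.49 after feeding, with an adjusted p of 0.24 by limma and of 0.00030 with the block. The angiopoietin-like AE-6349 was at or under the floor on all unfed arrays and at 0.25 to 1.71 on fed ones, with an adjusted p of 0.33 by limma and of 0.00030 with the block. The fit with the block counts arrays of 1 pool as samples.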

How the data were processed

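Total RNA of each gland pool (200 ng) was amplified, labelled with biotin and hybridized to 3 nylon oligonucleotide arrays. The authors deposited the intensity of each spot with its local background, and a normalized intensity, for which the mean of the 22 empty spots was subtracted from each spot and the result was scaled to the average of actin (position 411) and a second reference spot, which is not reported here. The values of the 3 unfed arrays were recomputed from the raw spots without a difference. The deposited score values of the series matrix, ratios of each group to unfed, served as an alternative only, with medians over gene spots of 1, 1.23, 1.16, 0.96 and 0.81 for unfed, 1, 3, 24 and 48 hpf. Another 9 columns, of group means and the authors' ratios, were not used, and neither were the sheets of ratios and p-values.

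Spots of 1 probe were averaged, and probes were ranked by the mean of their ranks on the 3 unfed arrays. Named were all saturated probes, the 20 highest and 5 lowest measurable ones, the 3 on each side of a class limit, the 5 with the widest spread, up to 4 of a gene list and the reference spots. The members and lists were chosen with earlier results of these data known. The unfed pool was set against 4 fed pools, arrays averaged on the log2 scale, with limma 3.58.1 in R 4.3.3 and Benjamini-Hochberg adjustment. The test thus rests on the spread between fed pools, which includes their different times. The fit was also run on simulated normal values, drawn without a floor or saturation. That run does not cover the effect of either on the calls, and nothing is read from it. Arrays of the same number deviated together (30 pairs, correlations 0.17 to 0.84 over 167 probes), so a fit with the array number as a block was also made. Tables were made with pandas 2.3.3 in Python 3.11.15. The number of arrays limits the precision of each pool, and the single unfed pool gives no spread between unfed pools. None of the array's identifiers was found in the RefSeq gene table, and probe sequences were not used here.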

Additional observations from a re-analysis of the deposited data

How the results depend on the processing

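The count of probes above the empty spots depended on which empty spots set the limit, an alternative chosen after seeing the data. With the 19 past position 129, 250 probes were measurable, 124 mixed and 11 dim, and 314 of all probes and 194 of those outside the secreted set lay above the limit on every array. With the 3 up to position 129, 33 were measurable and 29 mixed. The planned limit of mean plus 3 SD lowered the measurable probes from 62 to 48 and those above it throughout from 126 to 112. Folding and glycosylation probes above it fell from 10 to 6, and those of vacuolar ATPase and of signalling from 2 to 1 each. The highest empty spot as the limit gave 45 and 109, and the same counts for these lists. Subtraction of the local background lowered secreted probes from 84 to 68, with mucins from 8 to 5, and took the others from 42 to 43. Saturation at 65000 left 14 saturated probes of 48, and by agreement of 2 of 3 arrays 0 were mixed. Leaving out 1 unfed array gave 48 to 57 saturated, 64 to 69 measurable, 11 to 42 mixed and 279 to 297 dim probes. The fewest mixed, 11, were left without array 1. The 20 highest measurable probes remained the same 20 by mean raw and by normalized intensity and without each array, while 16 of them remained after subtraction of the local background, under which the ranks of all 20 moved, to between 6 and 197.

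For unfed minus fed pools, 0 higher and 0 lower calls became 2 and 6 with 15 single arrays, 10 and 60 with these and the array number as a replicate block, 9 and 0 by median scaling, and 3 and 0 without a filter on dim probes. Leaving out 1 unfed array gave 0 to 9 higher and 0 to 45 lower calls, with 9 and 45 without array 1 and 2 and 0 without array 2. A lower floor, normexp with quantile and the series matrix gave 0 and 0. Each alternative fit that gave a value kept the direction of AE-212, AE-329 and AE-922. These probes were chosen by their values on the same arrays, so the kept direction is no independent support. Median scaling moved the median of all tested probes from -0.11 to 0 on the log2 scale. The planned fit with a single reference spot is not reported here. Saturation, the spread between arrays and the single unfed pool limit the comparison.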
